A study of Mus musculus with 33 samples.

Results

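Endothelial cells of the mouse fetus at the embryonic stage E13.5 were compared between animals in which 1 extra Runx1 copy could be switched on (1Runx1) and control animals (Ctrl). The samples were taken by their stage and genotype labels, and they numbered 7 of the 33 samples in the series: 3 RNA-seq libraries and 4 ATAC-seq libraries. RNA-seq, which counts transcripts, had 2 libraries of 1Runx1 and 1 of Ctrl. ATAC-seq, which marks open chromatin by transposase insertion, had 2 libraries of each group. The 1Runx1 genotype is Cre; CKI/+, that is, Cre together with 1 copy of a conditional knock-in allele. The Ctrl genotype is given as CKI/CKI; CKI/+ with no Cre named, so the labels do not say how many copies of the allele a control fetus carried. Cre and the added Runx1 therefore differed together between the groups and cannot be told apart. Which promoter drives Cre is not stated in the labels. Both groups shared the mixed C57BL/6J-129Sv/J background and the tamoxifen, 2 mg injected into the mothers 24 hours before harvest. Cells came from the whole fetus and were sorted as CD41-CD45-Ter119-CD31+VEC+cKIT lo/+, a gate for endothelial cells (CD31 and VE-cadherin, VEC) that leaves out platelet, white and red blood cells. The labels do not say whether fetuses were pooled or whether replicates came from separate animals, so part of the scatter between replicates may be technical. The p-values reflect the scatter within all RNA-seq groups of 2 libraries in the series, those of E9.5 embryos and adult liver included. They do not measure the scatter of the single E13.5 Ctrl library. For reference, 2Runx1 fetuses (Cre; CKI/CKI) of the same stage and strain had 2 RNA-seq and 2 ATAC-seq libraries. The E9.5 embryos, of 2 libraries per group and assay, came from superovulated mothers on a C57BL/6J-129Sv/J x B6C3F1 background and were 1Runx1 (Cre; CKI/+) or Ctrl (CKI/+). The 2Runx1 and E9.5 groups had the same tamoxifen dose and time before harvest.

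RUNX1 is a transcription factor that binds DNA together with its partner CBFβ at the core motif TGTGGT. In the embryo it is required for hemogenic endothelium, the endothelial cells that turn into blood cells, and this capacity belongs to early vessels and is largely lost later in gestation. TGFβ signalling, which the title of the series names, acts through type I and type II receptors and SMAD proteins and is known both to shape vessels and to influence the endothelial-to-blood transition. Later endothelium specialises by organ, for example into the Wnt-dependent vessels of the brain and the sinusoids of the liver.

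The 3 RNA-seq libraries were of like depth, with 43417385 reads in Ctrl and 43911440 and 43527389 in 1Runx1. Runx1 (chr16:92601466-92826074, GRCm38.p6, the build of all positions given here) stood at 1.37 RPKM (reads scaled for gene length and library size) in Ctrl and at 28.9 and 23.7 RPKM in the 1Runx1 libraries. Both libraries were far above the control, by 19.2-fold on average, and Runx1 was called higher (log2 difference 3.52 ± 0.12 (SE), adjusted p = 1.76e-07). The 2 libraries with 2 added copies (2Runx1) reached 22.7 and 25.2 RPKM, and 2Runx1 minus 1Runx1 was -0.13 on the log2 scale (adjusted p = 0.503). Cbfb, which encodes the partner subunit, was at 44.1 RPKM in Ctrl and at 42.3 and 46.3 RPKM in 1Runx1. Reads could not be divided between the endogenous gene and the knock-in copy.

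Markers of endothelium were abundant in all 3 libraries. Pecam1, which encodes CD31, was at 280 RPKM in Ctrl and at 274 and 273 RPKM in 1Runx1. Cdh5, which encodes VE-cadherin, was at 148 RPKM against 182 and 168 RPKM, a small increase (log2 difference 0.24 ± 0.06, adjusted p = 0.0429). Kit, the receptor used in the gate at low to positive level, was at 25.6 RPKM in Ctrl and at 39.4 and 39.2 RPKM in 1Runx1 (0.60 ± 0.16, adjusted p = 0.0447). The gate did not leave out every other transcript. Itga2b, which encodes the excluded CD41, was at 7.10 RPKM in Ctrl and at 9.09 and 5.51 RPKM in 1Runx1, on both sides of the control. Markers of hepatocytes, red cells and white cells were also detected and were mostly lower in 1Runx1, as described further on.

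Of 12546 genes tested, 795 were called higher in 1Runx1 (6.34%) and 505 were called lower (4.03%). The test was limma on log2(RPKM + 1) with all 13 RNA-seq libraries of the series sharing 1 estimate of the spread. Besides the E13.5 and E9.5 libraries, these included libraries of adult liver endothelium (Ctrl and 2Runx1). The liver came from animals of 4 to 6 weeks, which also had tamoxifen (2 mg). Adjusted p here means the Benjamini-Hochberg value over all genes tested at a threshold of 0.05. Differences were small for most calls: 50 genes rose and 51 fell by at least 2-fold on that scale. The median difference of all genes tested was 0.024. Every call rests on 1 control library, whose own scatter was taken to be that of the other groups. When the 5 E13.5 libraries were fitted alone, 4 genes were called higher and 1 lower, namely Rps18-ps4, Eno1b, Runx1 and H2-K1 upward and Cdk5rap1 downward. With the 9 embryonic libraries, and so without adult liver, 321 were called higher and 248 lower. The balance of directions also moved with the scaling: 61.2% of calls were increases in the test as described, against 49.3% with quantile normalization and 44.2% with reads scaled to library totals. The standard deviation over genes of the difference between Ctrl and a 1Runx1 library was 0.323 and 0.314, against 0.246 between both 1Runx1 libraries. Ctrl and the 2Runx1 libraries differed by 0.218 and 0.257, so by this measure the 1Runx1 pair stood farther from Ctrl than the 2Runx1 pair did.

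**Figure D1:**
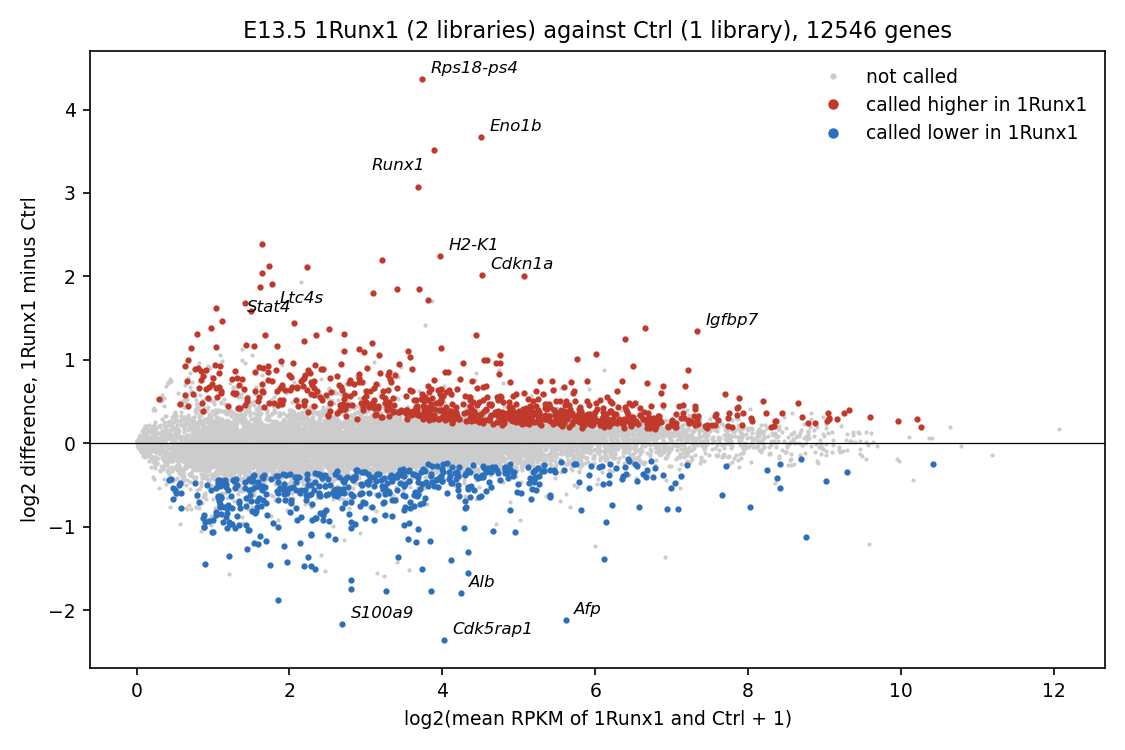
Each point is 1 of 12546 genes, with log2 of the mean RPKM of 1Runx1 and Ctrl plus 1 on the x axis and the log2 difference, 1Runx1 minus Ctrl, on the y axis; red marks the 795 genes called higher, blue the 505 called lower and grey the rest. Most called genes lie within 1 log2 unit of 0, and Runx1, Eno1b, Rps18-ps4 and Mmp9 lie above 3.

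The 20 largest increases and 20 largest decreases were taken from genes that were also called, with the same sign, when either 1Runx1 library was left out, which held for 324 of the higher and 228 of the lower genes. Members of gene lists named further on were called with both libraries, and how many of them held without each library is given list by list. The 20 largest increases fell into genes that were also high in the 2Runx1 libraries and genes that were not. The first kind included Stat4 (chr1:51987106-52107189), a transcription factor of interleukin signalling, at 0.311 RPKM in Ctrl and at 4.06 and 3.55 RPKM in 1Runx1. Its 2Runx1 libraries held 4.03 and 4.01 RPKM, so all 4 libraries with added Runx1 were more than 10 times the control (1Runx1 minus Ctrl 1.87 ± 0.12, adjusted p = 2.16e-05). AI467606, a gene of little known function, stood at 4.59 RPKM in Ctrl and at 16.9 and 21.6 RPKM in 1Runx1 (1.85 ± 0.16, adjusted p = 0.000203). Its 2Runx1 libraries held 14.2 and 13.8 RPKM, between the control and 1Runx1. Lrrc55, an auxiliary subunit of potassium channels, was at 1.24 RPKM in Ctrl, 4.51 and 5.74 RPKM in 1Runx1 and 3.80 and 2.63 RPKM in 2Runx1. Gprin3 was at 0.406 RPKM in Ctrl, 3.42 and 3.06 RPKM in 1Runx1 and 1.60 and 2.61 RPKM in 2Runx1. In both genes no library with added Runx1 came down to the control. The 1Runx1 and 2Runx1 comparisons use the same control library, so their agreement is no second measurement.

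The second kind of increase was not seen in 2Runx1. Rps18-ps4 (chr13:97751112-97760963), annotated as a ribosomal protein pseudogene, was at 0.229 RPKM in Ctrl, 24.4 RPKM in each 1Runx1 library and 0.340 and 0.222 RPKM in 2Runx1. The 2Runx1 libraries were at the level of Ctrl (2Runx1 minus 1Runx1 -4.31, adjusted p = 1.64e-08). Eno1b, an intronless copy of the glycolytic enzyme gene Eno1, behaved likewise with 2.30 RPKM in Ctrl, 40.3 and 41.9 RPKM in 1Runx1, and 2.58 and 2.85 RPKM in 2Runx1. H2-K1 (chr17:33996012-34000619), which encodes a class I MHC protein that presents peptides at the cell surface, was at 4.46 RPKM in Ctrl and at 25.5 and 24.3 RPKM in 1Runx1. Its 2Runx1 libraries held 5.93 and 6.14 RPKM, close to Ctrl, and 2Runx1 minus 1Runx1 was -1.88 (adjusted p = 2.04e-06). Gt(ROSA)26Sor, the non-coding transcript of the Rosa26 locus, was at 0.763 RPKM in Ctrl, 6.43 and 6.87 RPKM in 1Runx1, and 1.06 and 1.44 RPKM in 2Runx1. Paip1, which encodes a translation factor that binds the poly(A)-binding protein, was at 3.61 RPKM in Ctrl, 15.4 and 15.9 RPKM in 1Runx1, and 3.39 and 3.09 RPKM in 2Runx1. For each of these 5 genes the 1Runx1 and 2Runx1 libraries did not overlap. A530016L24Rik, Gm5801 and H2-Q1 were likewise near or below Ctrl in 2Runx1, with 2Runx1 minus 1Runx1 of -2.07, -1.37 and -1.48 (adjusted p = 1.29e-05, 4.68e-05 and 2.04e-05). Cdk5rap1 (chr2:154222011-154373038), which encodes an enzyme that modifies transfer RNA, showed the reverse, with 26.2 RPKM in Ctrl, 4.68 and 3.98 RPKM in 1Runx1, and 14.6 and 13.48 RPKM in 2Runx1. It was the largest decrease (log2 difference -2.36 ± 0.15, adjusted p = 2.16e-05), and its 2Runx1 libraries lay between the other groups.

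The fetuses were of a mixed strain background, Ctrl was 1 library, and the labels do not give the parentage of each library. The part of strain background in genes that set 1Runx1 apart from both Ctrl and 2Runx1 was not tested. Reads of these genes are in part uncertain. Rps18-ps4, Eno1b, Gm4737, Gm5801, H2-K1 and H2-Q1 have close copies elsewhere in the genome, among which short reads may be divided. Of the 40 named genes, 10 overlap another RefSeq gene, and the library kit does not mark strand, so overlapping and antisense genes cannot be separated; Gt(ROSA)26Sor overlaps Thumpd3 and Cdk5rap1 overlaps Bpifb5. E030030I06Rik had no read in Ctrl and stood at 3.79 and 4.74 RPKM in 1Runx1, at least 160-fold higher when the control is set at 3 reads (for the Ctrl library, counting error only). The remaining increases of the 20 were Rbm45 (2.20 ± 0.44), Gm4737 (2.04 ± 0.16) and Ttyh2 (2.00 ± 0.24), and Cdkn1a, Ltc4s and Eda2r, which are taken up below. Ttyh2, which encodes a membrane protein of the tweety family, was at 12.4 RPKM in Ctrl, 55.0 and 50.03 RPKM in 1Runx1 and 14.8 and 25.1 RPKM in 2Runx1.

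**Figure D2:**
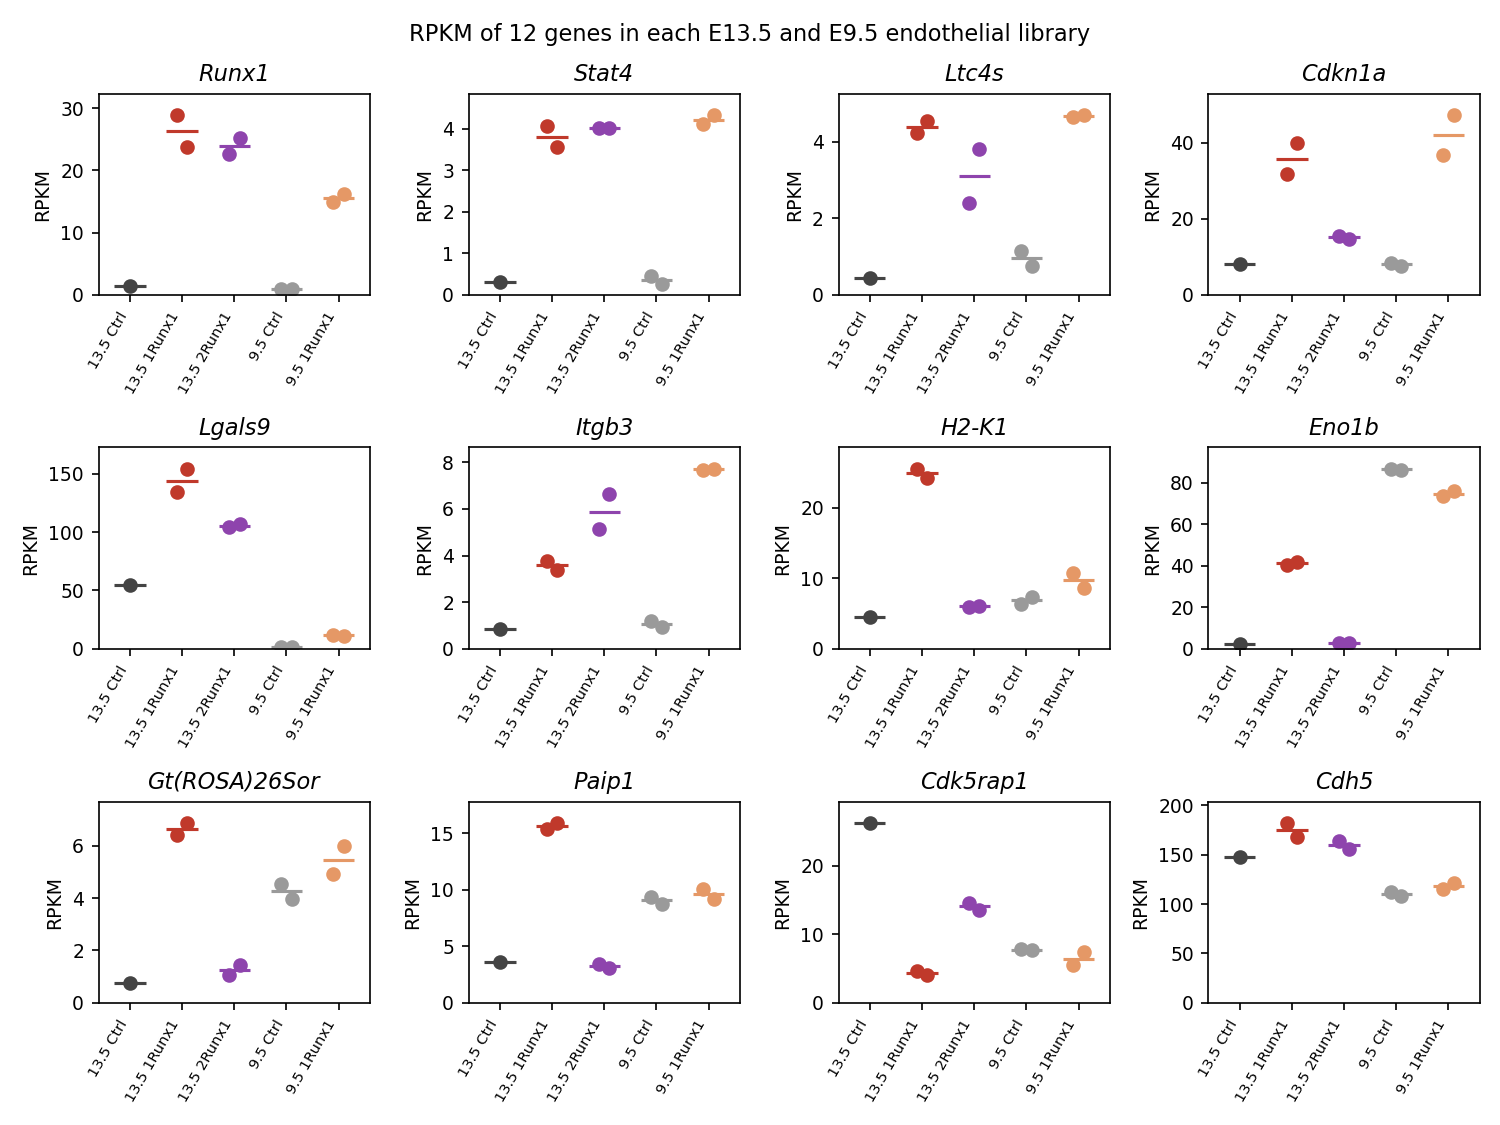
RPKM of 12 genes on linear axes that start at 0, with 1 point per library and a bar at the group mean, for E13.5 Ctrl (1 library) and for E13.5 1Runx1, E13.5 2Runx1, E9.5 Ctrl and E9.5 1Runx1 (2 libraries each). Stat4 is near 4 RPKM in all 6 libraries with added Runx1, H2-K1 is above 20 RPKM in the E13.5 1Runx1 libraries alone, and Cdk5rap1 is highest in E13.5 Ctrl at 26.2 RPKM.

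The earlier stage gave a comparison with no library in common. At E9.5, 1Runx1 against Ctrl (2 libraries each, from whole embryos) called 108 genes higher (0.861%) and 41 lower (0.327%) in the same model. Of the 795 genes called higher at E13.5, 56 were also called higher at E9.5, which is 7.04% of the E13.5 list and 51.9% of the E9.5 list. Of the 505 called lower, 11 were also called lower, 2.18% of the E13.5 list and 26.8% of the E9.5 list. Both fits share the estimate of the spread. Lgals9 (chr11:78962979-78984924), which encodes the sugar-binding protein galectin-9, was at 54.4 RPKM in E13.5 Ctrl and at 134 and 154 RPKM in 1Runx1 (1.38 ± 0.08, adjusted p = 8.25e-06). At E9.5 it went from 1.91 and 1.87 RPKM to 11.7 and 11.2 RPKM (log2 difference 2.11). Itgb3, the β3 chain of the vitronectin and platelet fibrinogen receptors, was at 0.862 RPKM in E13.5 Ctrl and at 3.77 and 3.38 RPKM in 1Runx1 (1.30 ± 0.13, adjusted p = 0.000575). At E9.5 it went from 1.19 and 0.938 RPKM to 7.69 and 7.71 RPKM (2.08). The signalling genes Dok2 (1.22 at E13.5 and 1.08 at E9.5), Def6 (1.20 and 1.09) and Lcp2 (0.93 and 0.83) were called at both stages, and their difference between the stages did not pass the test. Of the 56 genes, 4 had a difference between the stages that itself passed the test: Itgb3, Lgals9 and Alox5 with a smaller increase at E13.5, and H2-K1 with a larger one. Among the 11 genes lower at both stages were 2 of endothelial identity, the angiopoietin receptor gene Tek and Clec14a.

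Targets of p53, the transcription factor that answers DNA damage and other stress, were more often called higher than lower: of 28 tested members 9 were higher and 0 lower, with a median log2 difference of 0.30, against 6.34% higher over all genes tested. Without 1Runx1 replicate 2 the count was 5, and without replicate 1 it was 12. Cdkn1a (chr17:29090979-29100722), which encodes the cell-cycle inhibitor p21, was at 8.05 RPKM in Ctrl and at 31.8 and 39.9 RPKM in 1Runx1 (2.02 ± 0.15, adjusted p = 5.47e-05). The 2Runx1 libraries held 15.6 and 14.6 RPKM, below both 1Runx1 libraries and above Ctrl (2Runx1 minus 1Runx1 -1.19, adjusted p = 0.000694). Eda2r, a receptor of the tumour necrosis factor family, was at 0.246 RPKM in Ctrl and at 2.25 and 3.91 RPKM in 1Runx1 (1.68 ± 0.23). Phlda3, an inhibitor of AKT signalling, was at 14.9 RPKM in Ctrl and at 26.3 and 35.7 RPKM in 1Runx1 (0.99 ± 0.15, adjusted p = 0.00464). Bax, a promoter of cell death at the mitochondrion, was at 89.7 RPKM in Ctrl and at 139 and 151 RPKM in 1Runx1 (0.69 ± 0.07, adjusted p = 0.000625). Sesn2 (0.85), Zmat3, Aen, Gtse1 and Ei24 were the other members called higher, and of these 5 only Zmat3 was called without each 1Runx1 library. Mdm2, the ubiquitin ligase that p53 induces against itself, was at 21.0 RPKM in Ctrl and at 20.7 and 23.3 RPKM in 1Runx1, within the spread. Trp53 itself was at 94.0 RPKM against 116 and 109 RPKM (0.26 ± 0.09, adjusted p = 0.0863). With the embryonic libraries alone, 4 of the 28 were called higher. At E9.5, 13 of the 28 were called higher and 0 lower, with a median of 0.38.

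Enzymes of the leukotriene pathway, which turns arachidonic acid into inflammatory lipids, were among the genes called higher. Of 17 tested genes for eicosanoid and lipid mediator enzymes, 4 were called higher and 0 lower (median 0.18), against 6.34% and 4.03% over all genes tested. All but Lta4h, 3 of the 4, held without each 1Runx1 library. Ltc4s (chr11:50236461-50238532), the synthase that joins glutathione to leukotriene A4, was at 0.433 RPKM in Ctrl and at 4.21 and 4.53 RPKM in 1Runx1 (1.91 ± 0.18, adjusted p = 0.000346). The 2Runx1 libraries held 2.40 and 3.81 RPKM, and E9.5 went from 1.15 and 0.759 RPKM to 4.64 and 4.69 RPKM, so no library with added Runx1 reached down to a control. Alox5, the lipoxygenase that makes leukotriene A4, was at 0.217 RPKM in Ctrl and at 1.02 and 1.56 RPKM in 1Runx1 (0.90 ± 0.14, adjusted p = 0.00552). Ptges, a prostaglandin E synthase, was at 1.47 RPKM against 2.66 and 2.93 RPKM (0.62 ± 0.12), and Lta4h, the hydrolase that makes leukotriene B4, was at 116 RPKM against 137 and 141 RPKM (0.25 ± 0.06). Alox5ap, the activating protein of the lipoxygenase, was at 3.42 RPKM in Ctrl and at 4.95 and 7.07 RPKM in 1Runx1 and did not pass (0.65 ± 0.21, adjusted p = 0.0768).

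The promoter of Ltc4s carried an ATAC-seq peak that was in the 1Runx1 list and not in the Ctrl list. The authors called peaks on each group's replicates together, so a peak has no replicate check. The peak lay at chr11:50238449-50238739, with 4.24-fold enrichment and −log10 q of 19.2 by the authors' peak caller, and its summit was 94 bases before the start of the gene. The 250 bases before that start (RefSeq, GRCm38.p6, chr11:50238533-50238782, minus strand) are shown because they carry both the peak and a RUNX core. Capitals mark ACCACA, the reverse complement of TGTGGT, which begins 156 bases before the start and lies under the peak, as do 207 of the bases shown.
Ltc4s: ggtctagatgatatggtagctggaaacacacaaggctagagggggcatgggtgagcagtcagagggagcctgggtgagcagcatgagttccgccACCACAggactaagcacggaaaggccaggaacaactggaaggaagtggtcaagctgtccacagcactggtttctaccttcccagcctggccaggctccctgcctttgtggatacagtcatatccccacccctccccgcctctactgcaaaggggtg
TGTGGT on either strand was in 16.8% of all 32817 promoter windows of this kind (250 bases before and 50 after the start), so a match alone is common. The same region was in the peak lists of E13.5 2Runx1, E9.5 1Runx1 and E9.5 Ctrl, and it lay in the authors' H3K4me1 regions of E13.5 Ctrl, a histone mark of enhancers and promoter flanks. Alox5 had a 1Runx1-only peak at chr6:116455878-116456134, inside the gene and 5.2 kb after its start, with 8.33-fold enrichment and −log10 q of 18.2. That region was also in the E13.5 2Runx1 and E9.5 1Runx1 lists and in neither the E9.5 Ctrl list nor the H3K4me1 regions.

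Interferon-stimulated genes, which cells switch on in antiviral defence, were called higher in 13 of 32 tested members and lower in 0, with a median of 0.46. Over all genes tested the shares were 6.34% and 4.03%. Without each 1Runx1 library, 11 of the 13 held. Usp18, which removes ISG15 from proteins, was at 1.47 RPKM in Ctrl and at 4.26 and 3.57 RPKM in 1Runx1 (0.99 ± 0.19, adjusted p = 0.0137). Isg15 itself was at 2.43 RPKM against 6.32 and 4.93 RPKM (0.94 ± 0.20). Rtp4 (0.95 ± 0.13), Xaf1 (0.87 ± 0.13) and the transcription factor gene Irf7 (0.85 ± 0.18) rose by like amounts. Ifitm3, a membrane protein that blocks virus entry and the most abundant of the called members, was at 110 RPKM in Ctrl and at 164 and 191 RPKM in 1Runx1 (0.68 ± 0.10, adjusted p = 0.00467). Its 2Runx1 libraries held 145 and 169 RPKM. At E9.5, 0 of the 32 were called by limma in either direction and 4 had an unadjusted p under 0.05, with a median of 0.01. With the embryonic libraries alone, 6 were called higher. Of 18 tested genes of class I MHC and peptide loading, 5 were called higher and 1 lower, against the same shares over all genes tested. Of these calls, 3 and 1 held without each 1Runx1 library. Besides H2-K1 and H2-Q1, those called higher were Tap1, a peptide transporter (0.69 ± 0.20), Psmb10, an immunoproteasome subunit (0.46 ± 0.11), and H2-D1 (0.30 ± 0.06), with H2-Q10 lower (-0.67 ± 0.11). B2m, the shared light chain, was at 369 RPKM in Ctrl and at 357 and 393 RPKM in 1Runx1, on both sides of the control.

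**Figure D3:**
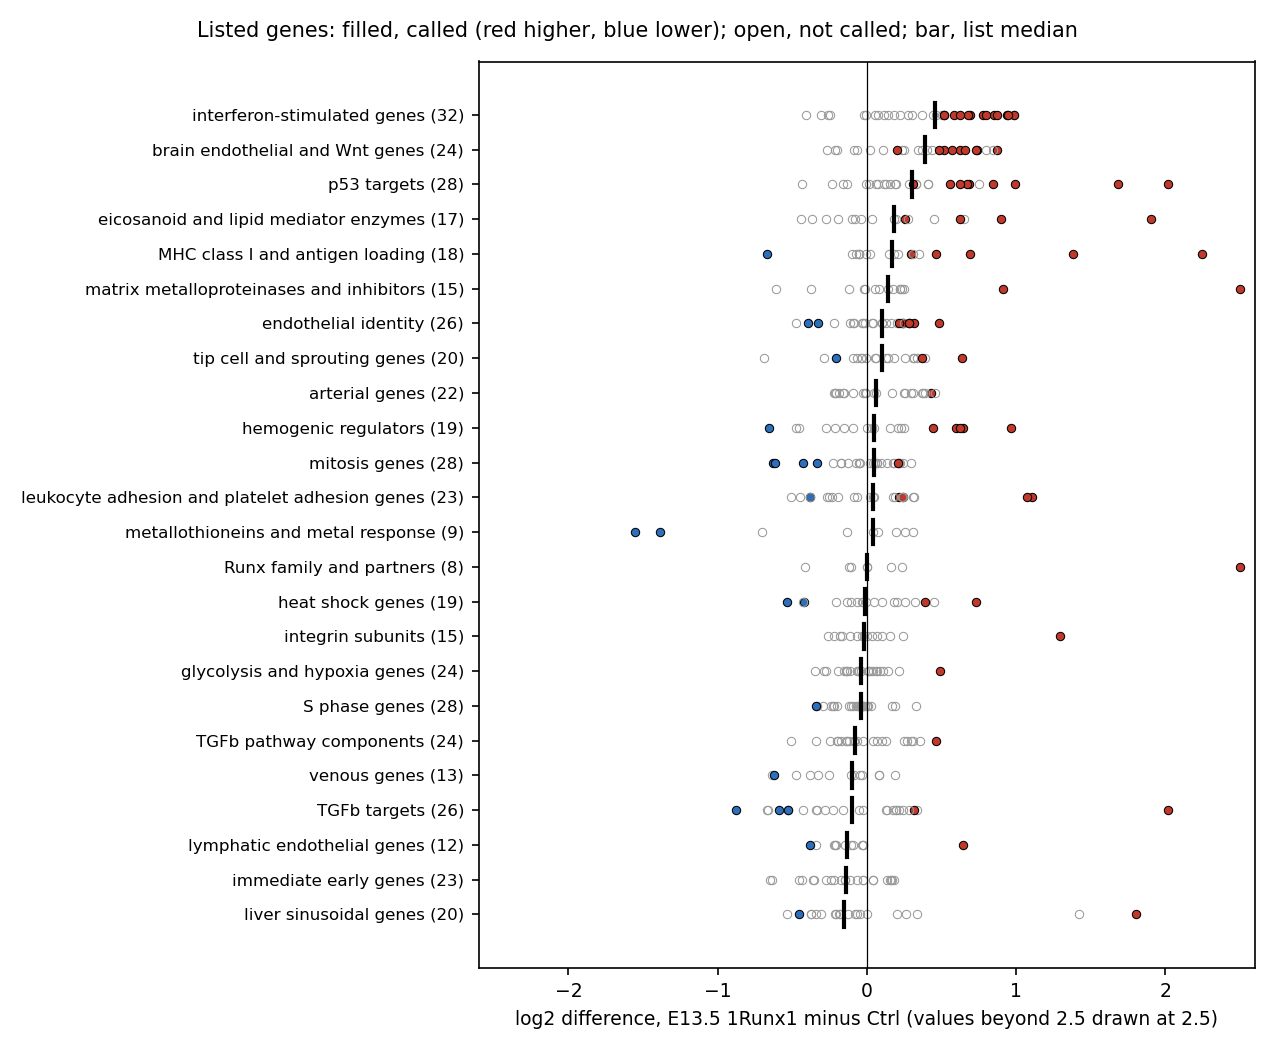
Log2 difference, 1Runx1 minus Ctrl, of each tested gene in 24 lists (number tested in brackets), with filled points for called genes (red higher, blue lower), open points for the rest and a bar at the list's median; values beyond 2.5 are drawn at 2.5. Interferon-stimulated genes (median 0.46), brain endothelial and Wnt genes (0.39) and p53 targets (0.30) lie highest, against 0.024 over all genes tested.

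Genes of brain endothelium and of its Wnt signalling were called higher in 9 of 24 tested members and lower in 0, with a median of 0.39, against 6.34% higher over all genes tested. Without 1Runx1 replicate 1 the count was 4, and without replicate 2 it was 10. Slc7a5, the transporter of large neutral amino acids at the blood-brain barrier, was at 103 RPKM in Ctrl and at 196 and 185 RPKM in 1Runx1 (0.88 ± 0.11, adjusted p = 0.00153). Lef1, a transcription factor through which β-catenin acts, was at 6.51 RPKM in Ctrl and at 11.5 RPKM in each 1Runx1 library (0.74 ± 0.11, adjusted p = 0.00341). Apcdd1, a Wnt inhibitor that Wnt induces, was at 37.3 RPKM against 69.6 and 56.7 RPKM (0.73 ± 0.13). Cldn5, the tight junction claudin of endothelium, was at 334 RPKM in Ctrl and at 467 and 465 RPKM in 1Runx1 (0.48 ± 0.08, adjusted p = 0.00831). The 2Runx1 libraries held less of each than 1Runx1, at 128 and 138 RPKM for Slc7a5, 9.31 and 8.29 RPKM for Lef1, and 366 and 428 RPKM for Cldn5. Nkd1 (0.66), Slco1c1 (0.62), Foxq1, Tnfrsf19 and Slc39a8 completed the 9 and were the 5 that did not hold without each library. Slc2a1, the glucose transporter of the barrier, was at 280 RPKM in Ctrl and at 307 and 298 RPKM in 1Runx1 (0.11 ± 0.18, adjusted p = 0.731). Mfsd2a, its lipid transporter, was at 14.0 RPKM against 35.5 and 19.1 RPKM and did not pass, with the 1Runx1 libraries far apart (0.85 ± 0.29, adjusted p = 0.0929). With the embryonic libraries alone, 4 of the 24 were called higher, and at E9.5 0 were higher and 1, Apcdd1, was lower. In cells sorted from a whole fetus, a larger share of cells of one vascular bed and more RNA per cell cannot be told apart.

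Among 26 genes of endothelial identity, 7 were called higher and 2 lower (median 0.10), against 6.34% and 4.03% over all genes tested. All but Cdh5 held without each 1Runx1 library. The increases were below 0.5 on the log2 scale and comprised Cldn5, Esam (0.31), Nos3 (0.29), Sox7 (0.28), Cdh5, Egfl7 and Icam2. Tek fell from 157 RPKM to 124 and 115 RPKM (-0.39 ± 0.08, adjusted p = 0.0131) and Clec14a from 113 RPKM to 89.0 and 90.6 RPKM (-0.32 ± 0.06, adjusted p = 0.00817). Of 22 arterial genes 1 was called higher, the connexin gene Gja4 (0.43 ± 0.09), and 0 lower. Of 13 venous genes 1 was called lower, the metalloprotease gene Tll1 (-0.62 ± 0.12). Of 12 lymphatic genes Gata2 was higher and Foxc2 lower, the latter not without each library, and Lyve1 stood at 177 RPKM in Ctrl and at 174 and 136 RPKM in 1Runx1. Of 20 genes of tip cells and sprouting, Angpt2, a ligand of the Tek receptor (0.64 ± 0.13), and Sox4 (0.37 ± 0.08) were higher and Mcam lower (-0.21 ± 0.05), and of these Angpt2 alone held without each library. Among 20 liver sinusoidal genes, Dnase1l3 was higher (1.80 ± 0.44, adjusted p = 0.0301) and Ctsl lower (-0.46 ± 0.07). Dnase1l3 held 15.2 and 9.36 RPKM in 1Runx1 against 2.71 RPKM in Ctrl and 1.28 and 5.30 RPKM in 2Runx1, so its libraries were widely spread, and it was not called without replicate 1.

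Of 19 tested regulators of hemogenic endothelium, 5 were called higher and 1 lower, with a median of 0.05, against 6.34% higher and 4.03% lower over all genes tested. Without 1Runx1 replicate 2 the counts were 3 and 3, and without replicate 1 they were 4 and 1. Gata2, a transcription factor needed for the first blood stem cells, was at 13.2 RPKM in Ctrl and at 20.04 and 22.5 RPKM in 1Runx1 (0.65 ± 0.11, adjusted p = 0.00733). Lmo2, its co-factor, was at 116 RPKM against 154 and 161 RPKM (0.44 ± 0.09, adjusted p = 0.0169). Cd44, an adhesion molecule of hemogenic cells, was at 1.79 RPKM against 3.86 and 5.10 RPKM (0.97 ± 0.19), and Adgrg1, a receptor of emerging stem cells, at 5.52 RPKM against 8.64 and 9.53 RPKM (0.63 ± 0.14). Kit was the fifth. Nfe2, a factor of platelet and red cell precursors, was lower (-0.66 ± 0.14). Spi1, which encodes the blood factor PU.1, was at 0.785 RPKM in Ctrl and at 0.439 and 0.510 RPKM in 1Runx1 (-0.28 ± 0.17, adjusted p = 0.331). At E9.5, 0 of the 19 were called by limma and 6 had an unadjusted p under 0.05. With the embryonic libraries alone, 1 was called higher and 1 lower.

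Targets and components of TGFβ signalling showed no common direction. Of 26 tested targets 2 were called higher and 3 lower (6.34% and 4.03% over all genes tested), with a median of -0.10. Cdkn1a and Smad7 alone held without each 1Runx1 library. Cdkn1a, which is also a p53 target, and Hbegf (0.32 ± 0.09) were the higher members. Smad7, the inhibitory SMAD that the pathway induces, fell from 12.1 RPKM in Ctrl to 7.02 and 5.36 RPKM in 1Runx1 (-0.87 ± 0.18, adjusted p = 0.0169). The 2Runx1 libraries held 10.4 and 6.92 RPKM of Smad7, between Ctrl and 1Runx1 or within the range of 1Runx1. Thbs1, an activator of latent TGFβ (-0.59 ± 0.16), and Tagln, an actin-binding protein of smooth muscle (-0.53 ± 0.13), were also lower. Of 24 pathway components, Ltbp1, which tethers latent TGFβ to the matrix, was higher (0.46 ± 0.12, adjusted p = 0.0393) and 0 were lower. Ltbp1 was not called under each omission of a 1Runx1 library. Tgfb1 was at 50.3 RPKM in Ctrl and at 55.8 and 48.0 RPKM in 1Runx1, and the receptor gene Tgfbr2 at 66.3 RPKM against 73.4 and 68.8 RPKM (0.10 ± 0.09, adjusted p = 0.492). Acvrl1, the endothelial type I receptor, was at 35.6 RPKM against 42.0 and 46.1 RPKM (0.30 ± 0.09, adjusted p = 0.0629), and its co-receptor Eng at 167 RPKM against 175 and 155 RPKM. With the embryonic libraries alone, 1 target was called in each direction and 0 components.

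Among 23 genes of leukocyte and platelet adhesion, 4 were called higher and 1 lower, against 6.34% and 4.03% over all genes tested. Of these calls, 3 and 0 held without each 1Runx1 library. Without replicate 1, 3 were higher and 4 lower. F2rl3, a thrombin receptor, was at 6.46 RPKM in Ctrl and at 14.4 and 15.7 RPKM in 1Runx1 (1.10 ± 0.10, adjusted p = 0.000346). Procr, the receptor of protein C and a marker of emerging blood stem cells, was at 40.01 RPKM against 68.4 and 106 RPKM (1.07 ± 0.19, adjusted p = 0.00817), with 74.2 and 80.6 RPKM in 2Runx1. F11r (0.25) and Icam2 (0.22) were higher by less, and Icam1 was lower (-0.38 ± 0.09). Itgb3 was the 1 integrin subunit of 15 tested that was called. Among 15 matrix metalloproteinases and inhibitors, Mmp17 rose from 1.10 RPKM to 2.97 and 2.92 RPKM (0.91 ± 0.13, adjusted p = 0.00370). Mmp9, a gelatinase, was at 1.37 RPKM in Ctrl and at 34.3 and 10.3 RPKM in 1Runx1, with 7.79 and 31.9 RPKM in 2Runx1. All 4 libraries were above the control but differed among themselves more than 3-fold (3.08 ± 0.71, adjusted p = 0.0247), and Mmp9 was not called under each omission of a 1Runx1 library.

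Of 28 mitosis genes 1 was called higher and 4 lower (median 0.05), and of 28 S phase genes 0 higher and 1 lower (median -0.04). Shares over all genes tested were 6.34% higher and 4.03% lower. Of the called members, Mki67, Cenpe and Dtl held without each 1Runx1 library. Mki67, the proliferation antigen, was at 26.5 RPKM in Ctrl and at 16.6 and 17.0 RPKM in 1Runx1 (-0.63 ± 0.08, adjusted p = 0.00161). Cenpe, a kinetochore motor, was at 14.0 RPKM against 8.95 and 8.58 RPKM (-0.62 ± 0.10, adjusted p = 0.00480), and Cenpf (-0.43), Kif11 (-0.33) and the S phase gene Dtl (-0.34) were also lower. In Mki67 and Cenpe both 2Runx1 libraries lay between Ctrl and 1Runx1, at 22.98 and 24.8 RPKM for Mki67. Bub3 was higher (0.21 ± 0.05). Pcna, the clamp of DNA replication, was at 121 RPKM in Ctrl and at 113 and 115 RPKM in 1Runx1. Of 24 genes of glycolysis and hypoxia, Ndrg1 was higher (0.49 ± 0.12), though not without replicate 1, and 0 were lower. Of 23 immediate early genes, which cell dissociation can induce, 0 were called in limma and in limma-voom on the recovered reads (2 had an unadjusted p under 0.05), and Fos was at 238 RPKM in Ctrl against 229 and 196 RPKM. Heat shock genes were split, with Hspb1 (0.73 ± 0.17) and Hsf1 (0.39 ± 0.08) higher and Hsp90aa1 (-0.54 ± 0.13) and Dnajb4 (-0.42 ± 0.11) lower, and only the higher ones held without each library. The metallothionein genes Mt1 and Mt2, which encode small metal-binding proteins, fell from 98.2 to 45.8 and 29.9 RPKM and from 29.0 to 9.63 and 8.82 RPKM (-1.38 ± 0.22 and -1.56 ± 0.17).

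Most of the largest decreases were genes typical of cells outside the gate. Of 18 tested hepatocyte genes 15 were called lower and 1 higher (median -1.22), and of 15 red cell genes 8 were called lower and 0 higher (median -0.83). Over all genes tested, 4.03% were called lower and 6.34% higher. Of the 15 and 8 decreases, 12 and 6 held without each 1Runx1 library. Afp (chr5:90490714-90508907), the fetal albumin, was at 78.3 RPKM in Ctrl, 14.9 and 19.98 RPKM in 1Runx1 and 35.9 and 46.3 RPKM in 2Runx1 (1Runx1 minus Ctrl -2.12 ± 0.17, adjusted p = 0.000122). Alb was at 28.1 RPKM in Ctrl, 5.53 and 9.80 RPKM in 1Runx1 and 11.6 and 18.5 RPKM in 2Runx1 (-1.79 ± 0.27). The control was thus the highest of the 5 libraries for both genes. Rbp4, Serpina6, Ambp, Apom, Apoa2, Fgb, Itih2, Serpina1b and Apoa1, all liver secretory genes, were among the 20 largest decreases, at -1.77 to -1.40. The exception among hepatocyte genes was Trf, which encodes transferrin and is made elsewhere too, at 90.7 RPKM against 144 and 134 RPKM (0.61 ± 0.08). Ttr was not called and ranged from 3.25 to 59.2 RPKM over the 5 libraries. Summed over 19 hepatocyte genes, of which Cyp2e1 was at 0, RPKM was 320 in Ctrl, 220 and 219 in 1Runx1 and 218 and 314 in 2Runx1. These sums include Trf, which rose and made up much of the 1Runx1 values, and the variable Ttr. The sum therefore fell by less than the median member. The red cell list was at 1339 in Ctrl, 537 and 655 in 1Runx1 and 1378 and 682 in 2Runx1, so that 1 of the 2Runx1 libraries matched Ctrl. The globin gene Hbb-y was at 1064 RPKM in Ctrl and at 420 and 506 RPKM in 1Runx1 and did not pass (limma, adjusted p = 0.0915). Hbb-y made up most of the red cell sum in Ctrl and 1Runx1. The listed globin genes Hbb-bt, Hbb-bs and Hba-a2 were at 0 in every E13.5 library.

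Part of the white cell markers were called lower. Of 17 macrophage genes 6 were called lower and 0 higher (median -0.21), against 4.03% and 6.34% over all genes tested. Without each 1Runx1 library, 5 of the 6 held. C1qb, a complement subunit made by macrophages, was at 5.80 RPKM in Ctrl and at 1.60 and 1.68 RPKM in 1Runx1 (-1.37 ± 0.09, adjusted p = 2.58e-05), and Tyrobp, a signalling adaptor, at 5.71 RPKM against 1.01 and 1.91 RPKM. Lyz2 was at 6.43 RPKM against 5.03 and 5.87 RPKM and Cd163 at or near 0 in every E13.5 library. Of 7 neutrophil and mast cell genes 3 were lower and 0 higher, led by S100a9, a calcium-binding protein of neutrophils, at 9.502 RPKM in Ctrl against 2.04 and 0.786 RPKM (-2.17 ± 0.29, adjusted p = 0.00278). Of 7 megakaryocyte genes the platelet chemokine genes Ppbp (-1.88 ± 0.23) and Pf4 (-1.02 ± 0.24, not without replicate 2) were lower and 0 were higher. Of 9 muscle genes 3 were lower, or 1 without replicate 1, with Actc1 at 14.5 RPKM in Ctrl against 4.61 and 5.41 RPKM (-1.37 ± 0.26). Of 14 mesenchymal and 8 neural genes 2 and 1 were lower, and 0 and 0 without replicate 1. Of 9 epithelial genes 0 were called in limma and in limma-voom, and 2 had an unadjusted p under 0.05. The pan-haematopoietic list was mixed: of 12 genes, Lcp2 (0.93), Was (0.84), Laptm5 (0.59) and Cyba (0.28) were higher, and Rac2 (-0.64) and Cd53 (-0.70) lower. Without replicate 1 the counts were 1 and 2. Summed macrophage RPKM was 74.0 in Ctrl and 55.6 and 56.0 in 1Runx1. The calls on interferon genes, endothelial genes and hemogenic regulators came from the same 3 libraries as these marker differences. The part of the marker differences in those calls was not tested.

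**Figure D4:**
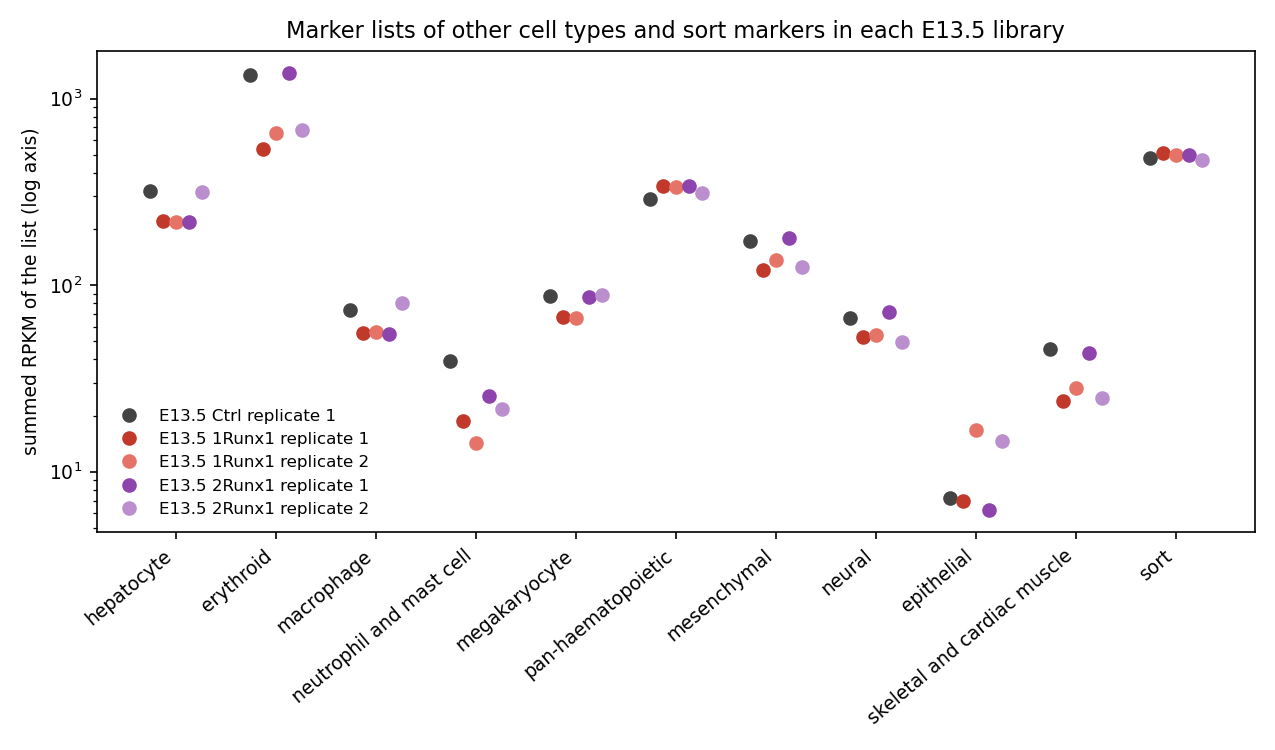
Summed RPKM (log axis) of 10 marker lists for other cell types and of the sort markers, with 1 point per E13.5 library: Ctrl black, 1Runx1 red shades, 2Runx1 purple shades. Neutrophil and mast cell, muscle and red cell lists are at their lowest or near it in the 1Runx1 libraries, and the red cell list of 2Runx1 replicate 1 (1378) is as high as that of Ctrl (1339).

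Chromatin accessibility was compared through the authors' peak lists. The 1Runx1 list held 100268 peaks, of which 15234 (15.2%) overlapped no Ctrl peak by 1 base or more. The Ctrl list held 96537 peaks, of which 12320 (12.8%) overlapped no 1Runx1 peak. With the same number of strongest peaks taken from each list, the order turned, with 12769 found in 1Runx1 alone and 13452 in Ctrl alone. Peaks in 1 list alone were weak: the median −log10 q was 4.48 for the 1Runx1-only and 4.21 for the Ctrl-only peaks, against 22.8 for the shared peaks of the 1Runx1 list. They were also narrow, with a median width of 139 and 144 bases against 331 bases. Without replicate peak lists, the spread behind these counts is unknown.

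Among strong peaks the lists were unequal. At −log10 q of 20 or more, 251 peaks were in 1Runx1 alone and 38 in Ctrl alone, 0.549% and 0.0833% of the peaks of that strength in their lists. Of the 251, 220 (87.6%) were also in the E13.5 2Runx1 list. At E9.5, whose libraries are separate, 211 (84.1%) were in the 1Runx1 list and 100 (39.8%) in the Ctrl list. Counted one by one, 118 were in the E9.5 1Runx1 list and not in E9.5 Ctrl, 7 were the other way round, 93 were in both and 33 in neither. Of the 38 strong Ctrl-only peaks, 0 were in E9.5 1Runx1 alone, 7 in E9.5 Ctrl alone, 20 in both and 11 in neither. The strong 1Runx1-only regions were thus found at the earlier stage more often in the list with added Runx1, and the strong Ctrl-only regions were not. Weak peaks showed less of this, since of the 3561 1Runx1-only peaks under −log10 q of 3, 28.7% were in the E9.5 1Runx1 list and 26.5% in the E9.5 Ctrl list. Only 24 of the 251 (9.56%) lay in H3K4me1 regions of E13.5 Ctrl, against 36.6% of the shared peaks of that strength. They were also away from promoters: 10 (3.98%) lay within 1 kb of a gene start, against 26.1% of the shared ones, and their median distance was 32.0 kb. The 38 strong Ctrl-only peaks were similar. Of these, 6 (15.8%) lay in the H3K4me1 regions and 1 (2.63%) within 1 kb of a start, with a median distance of 26.8 kb. Both traits were thus not particular to the 1Runx1-only peaks.

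**Figure D5:**
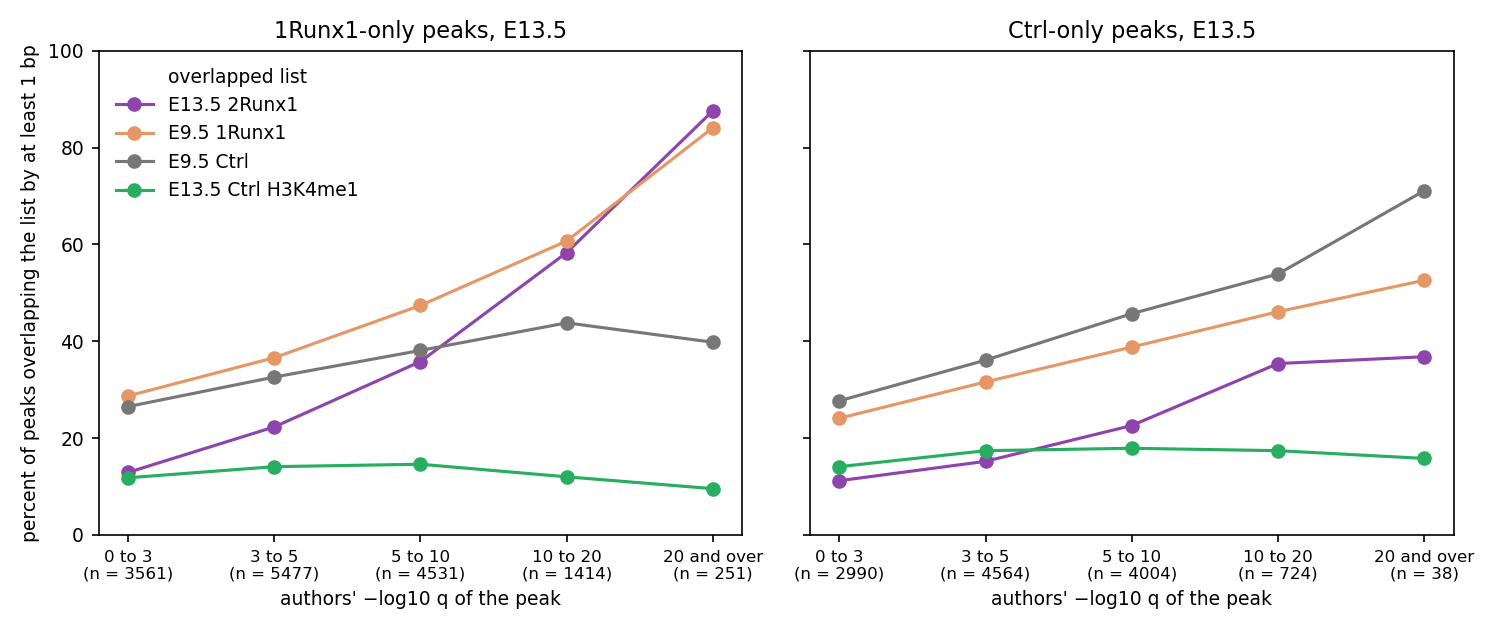
Percent of E13.5 1Runx1-only peaks (left) and Ctrl-only peaks (right) that overlap another list by at least 1 base, by the authors' −log10 q of the peak, with the number of peaks under each band; the lists are E13.5 2Runx1, E9.5 1Runx1, E9.5 Ctrl and the H3K4me1 regions of E13.5 Ctrl. On the left the 2Runx1 and E9.5 1Runx1 lines climb to 87.6% and 84.1%, while E9.5 Ctrl goes from 26.5% to 43.8% and ends at 39.8%; on the right E9.5 Ctrl is the highest line in every band.

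The strongest 1Runx1-only peak lay at chr12:51887476-51888216, with 18.4-fold enrichment and −log10 q of 124, within a gene body and 59.7 kb from the nearest RefSeq start, that of Gm5785. It was in the E13.5 2Runx1 and E9.5 1Runx1 lists and in neither the E9.5 Ctrl list nor the H3K4me1 regions. The second, chr16:74526499-74526918 (−log10 q of 91.0), was also in the E9.5 Ctrl list. The next 3, chr5:4246049-4246642 (88.7), chr13:30994447-30994789 (72.7, 20.6 kb from the start of Exoc2) and chr5:23718793-23719505 (70.5), lay outside gene bodies and had the pattern of the strongest. The strongest Ctrl-only peak, chr3:78966987-78967389 (51.4), was in the E13.5 2Runx1 list and in both E9.5 lists.

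Accessibility and expression were then set side by side by distance. A start was found in RefSeq for 9852 of the tested genes, and 57.2% of these had a 1Runx1-only peak within 50 kb. Among the 623 called higher the share was 63.7% (95% Wilson interval 59.9 to 67.4%), and among the 398 called lower it was 45.0% (40.2 to 49.9%). For Ctrl-only peaks the shares were 51.7% of all, 53.6% (49.7 to 57.5%) of the higher and 42.2% (37.5 to 47.1%) of the lower genes. The higher genes also had more 1Runx1 peaks of any kind nearby, 10.7 on average against 8.90 for all genes and 6.08 for the lower genes. With peaks of −log10 q of 10 or more, a choice made after seeing the data, 13.2% of the higher genes had a 1Runx1-only peak within 50 kb against 10.4% of all, and 5.78% had a Ctrl-only peak against 5.93% of all. Neighbouring genes can share a peak, and the intervals cover counting error only.

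At single genes the pattern varied. Ttyh2 had a 1Runx1-only peak of −log10 q 14.2 at chr11:114699562-114699881, 24.3 kb after its start, and Lef1 one of 13.2 at chr3:131086105-131086248, 24.2 kb before its start. Procr had one of 10.2 at chr2:155756958-155757153, 5.8 kb after its start, which was also in the 2Runx1 and in both E9.5 lists. Ttyh2 also had a Ctrl-only peak of 10.1, 38.5 kb before its start. Stat4 had 4 1Runx1-only and 3 Ctrl-only peaks within 50 kb, and the strongest of them was a Ctrl-only peak of −log10 q 15.6, 9.5 kb before its start, against 7.48 on the 1Runx1 side. Cdkn1a had 0 1Runx1-only and 4 Ctrl-only peaks, and 12 peaks of the 1Runx1 list in all. Bax, called higher, had a Ctrl-only peak of −log10 q 18.2, 4.1 kb before its start, and Cdk5rap1, called lower, had one of 17.9, 1.4 kb before its start. Of 13 TGFβ target genes with a start, 12 had a 1Runx1-only peak and 11 a Ctrl-only peak within 50 kb. For 14 hemogenic regulators the counts were 6 and 8, and for 20 p53 targets 11 and 10. The shares over all tested genes with a start were 57.2% and 51.7%.

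Promoter windows under a 1Runx1-only peak held the RUNX core more often than windows under a Ctrl-only peak. TGTGGT on either strand was in 71 of 279 windows that met a 1Runx1-only peak and no shared peak (25.4%, 95% Wilson interval 20.7 to 30.9%), in 33 of 223 that met a Ctrl-only peak and no shared peak (14.8%, 10.7 to 20.1%), in 11.8% of 15120 under a shared peak and in 21.0% of 17191 under none. The 21.0% under no peak lay within the interval of the 1Runx1-only windows. For the longer TGTGGTT, which contains TGTGGT, the shares were 10.8%, 4.93%, 3.41% and 6.82% in the same order. Its 95% intervals under 1Runx1-only and Ctrl-only peaks overlapped, at 7.64 to 14.9% and 2.78 to 8.62%. The E-box CAGCTG was in 27.6% and 24.2% of the 1Runx1-only and Ctrl-only windows, against 16.3% of all windows, so its share was raised under both. The ETS motifs ACAGGAAG and CCGGAAGT were in 6.09% and 11.2% (7.31% of all), and the AP-1 motif TGANTCA in 10.0% and 13.9% (7.81% of all). Other motifs were also more frequent under 1Runx1-only than Ctrl-only peaks, with overlapping 95% intervals. The SMAD motifs GTCTAGAC and CCAGACA were in 8.60% and 4.93% (6.41% of all). The KLF motif GGGTGTGG was in 3.94% and 1.35% (3.56% of all). A match is a description of the letters, not a measured binding site. Of 62 tested genes with a 1Runx1-only peak in a promoter window (0.629% of those with a start), 7 were called higher and 3 lower, against 6.34% and 4.03% of all genes tested. Of 41 with a Ctrl-only peak there, 1 was higher and 2 were lower. The higher ones under a 1Runx1-only peak were Ltc4s (1.91), Slc22a8 (1.37), Apod (1.29), Sult1a1 (0.77), Tpst2 (0.41), Akt1 (0.28) and Prkar1a (0.22), and Ltc4s was the one of these 7 whose window held TGTGGT. Slc22a8, an organic anion transporter of the brain barrier, was at 2.19 RPKM in Ctrl and at 8.59 and 6.03 RPKM in 1Runx1. The lower ones under a 1Runx1-only peak were Mid1 (-0.97), Tspo2 (-0.72) and Cul4b (-0.56).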

How the data were processed

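The authors deposited RPKM values for 25239 genes and 1 combined peak list per group. Per the submitters' processing notes, the tools named, without their roles, included STAR 2.7.3a, Subread 2.0.0, featureCounts, edgeR, Bowtie2 2.3.5.1 and MACS2 2.1.4, and the builds mm10 and GRCm38. The authors' peak lists give a fold enrichment (a ratio) and −log10 q for each peak. No label says whether ATAC reads were shifted for transposase insertion.

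Whole reads were recovered from the RPKM steps for 100.0% of the 20720 genes above 0 (tolerance 0.001 reads), giving 37754246 to 44540403 reads per library. Genes with at least 1 RPKM in at least 2 of 13 libraries were tested with limma 3.58.1 (R 4.3.3) on log2(RPKM + 1), with 7 group means, a mean-variance trend and Benjamini-Hochberg adjustment, because the values are not counts. Fold changes on this scale understate the change of low genes. On simulated data for this comparison and these 12546 genes, 84% of genes changed to 0.5-fold and 88% of genes changed 2-fold were called, with 8 false calls of 192. These rates hold for the simulated spread only and do not give the share of false calls in the measured data. Replicates of the E13.5 groups scattered more (median residual standard deviation 0.090) than those of the other stages (0.062). The Ctrl library had no replicate from which its own scatter could be taken. Peaks were matched by an overlap of at least 1 base. Gene starts came from RefSeq (GRCm38.p6), and motifs were searched in 300-base promoter windows, not around peak summits, as no genome sequence was used here.

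Genes named were Runx1, then the 20 largest increases (Runx1 counted) and 20 largest decreases that were also called without each 1Runx1 library, then called members of 35 lists, with at most 5 values a list and direction, and the defining markers of each list. Genes named outside this rule (Cbfb, Ifitm3, Pecam1, Itga2b, Trp53, Mdm2, Alox5ap, Slc2a1, Mfsd2a, Spi1, B2m, the TGFβ genes that were not called, those called at both stages, and those with promoter peaks) were chosen after their values were seen. The samples and lists were chosen with earlier results of these data known.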

Additional observations from a re-analysis of the deposited data

Results flagged for a closer look

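For 30 of the 40 named genes, the effect of 1Runx1 at E13.5 differed from that at E9.5 by a test of the difference itself (limma interaction, adjusted p from 7.54e-08 to 0.0345). Of all 12546 genes, 284 passed this test. The 40 genes were picked for the largest differences at E13.5, and the test reuses those values. A stage difference in the direction of the E13.5 effect was thus favoured in advance. The E9.5 embryos also had another strain background. The difference, E13.5 minus E9.5 on the log2 scale, was positive for 12 of the increases: 3.90 for Rps18-ps4, 3.88 for Eno1b, 1.88 for E030030I06Rik, 1.81 for H2-K1, 1.71 for A530016L24Rik, 1.82 for Gt(ROSA)26Sor, 2.09 for Gm4737, 2.20 for Ttyh2, 1.77 for Paip1, 1.37 for Gprin3, 1.65 for Gm5801 and 1.21 for H2-Q1. Eno1b was at 86.6 and 86.3 RPKM in the E9.5 Ctrl libraries, above every E13.5 library, and Paip1 at 9.38 and 8.78 RPKM.

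The difference was negative for 18 of the decreases. For liver secretory genes it was -2.11 for Afp, -1.77 for Alb, -1.81 for Rbp4, -1.76 for Serpina6, -1.88 for Ambp, -1.39 for Apoa2, -1.43 for Fgb, -1.54 for Itih2, -1.51 for Serpina1b and -1.27 for Apoa1. For genes of blood cells it was -2.17 for S100a9, -1.83 for Ppbp, -1.52 for Tyrobp and -1.39 for C1qb. For the others it was -2.11 for Cdk5rap1, -1.66 for Mt2, -1.74 for Zfp808 and -1.52 for Mt1. Alb was at 0.0356 and 0.0331 RPKM in the E9.5 Ctrl libraries, against 28.1 RPKM in E13.5 Ctrl.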

How the results depend on the processing

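The 40 genes of largest change were chosen as called without each 1Runx1 library, so those omissions say nothing of their stability. In the other 7 alternatives all 40 kept their sign, and in 5 of the 7 all kept their call. With the 5 E13.5 libraries alone, 4 genes were called higher and 1 lower, and 35 of the 40 lost their call; with the embryonic libraries alone the counts were 321 and 248, and 2 of the 40 lost it. These fits use fewer samples. Limma-voom on recovered reads called 771 lower, and 877 when scaled by read totals, an alternative added after seeing the data; the cause was not tested. Leaving out each 1Runx1 library in turn gave 609 to 713 genes higher and 388 to 475 lower. Requiring 50% overlap of both peaks gave 23943 and 20212 peaks in 1Runx1 alone and in Ctrl alone, and −log10 q of at least 10 gave 1665 and 762. The share of higher genes near a 1Runx1-only peak was 20.1% at 10 kb, 85.4% at 100 kb and 13.2% with −log10 q of at least 10, against 16.8%, 79.3% and 10.4% of all genes. TGTGGTT in place of TGTGGT gave 10.8% of promoter windows under 1Runx1-only peaks. The planned motif search around peak summits was not run, with either motif or width, as no genome sequence was used here. No paired analysis was possible because the E13.5 Ctrl group has 1 RNA library, so the groups compared share fewer than 2 replicate numbers, and the peak lists combine replicates.

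The single Ctrl library has no replicate, and the p-values borrow their spread from other stages. The median residual standard deviation was 0.062 at E9.5 and 0.062 in adult liver, against 0.09 at E13.5. Peaks have no replicate check.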
